A study of Homo sapiens with 18 samples.

Results

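The 8 genes described here, TLR2, TLR3, TLR4, MYD88, NLRP3, CASP1, CASP4 and GSDMD, encode Toll-like receptors, their shared adaptor and the inflammasome proteins that end in pyroptosis, a lytic cell death. They were chosen by gene name, with earlier results of these data known, and make up 8 of the 60623 genes in the count table. Toll-like receptors bind microbial products and material from damaged cells: TLR2 and TLR4 at the cell surface, and TLR3, a receptor for double-stranded RNA, in endosomes. Most of the family signals through MYD88 to NF-kB, whereas TLR3 uses the adaptor TICAM1. The inflammasome sensor NLRP3 recruits and activates caspase-1 (CASP1), which matures interleukin-1 beta and interleukin-18. CASP1 and CASP4, a caspase that binds lipopolysaccharide in the cytosol, both cleave gasdermin D (GSDMD), whose freed end forms pores in the plasma membrane. In senescent fibroblasts, TLR2 and inflammasome signaling are known as regulators of the senescence-associated secretory phenotype (SASP), the mix of cytokines, growth factors and proteases that such cells release.

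Poly(A) RNA was sequenced from wild-type IMR90 cells, a strain of primary human lung fibroblasts, in 6 groups of 3 libraries each. IR_RG7388 and IR_HDM201 cells had been made senescent by ionizing radiation (IR) and were given RG7388 or HDM201 from day 4 to day 11 after irradiation, that is for 7 days. Both compounds inhibit MDM2, the ligase that marks p53 for degradation. IR_DMSO cells were irradiated and given the solvent DMSO over the same days. Prolif_RG7388, Prolif_HDM201 and Prolif_DMSO cells were proliferating and were given the same agents, and the labels state no separate timing for them. Because the doses of the compounds differed, their values are set side by side and were not compared with each other. Whether the 3 libraries of a group came from separate irradiations is not stated in the labels (a replicate is generally 1 culture well in the study), and p-values therefore cover only the spread among these libraries, which may be technical.

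Libraries held 21609198 to 66647700 counted reads. Levels are CPM, read counts relative to a library size scaled by the trimmed mean of M values (TMM), with the mean ± SD over 3 libraries. Differences are given as log2 fold changes ± SE from edgeR, called at a p adjusted over 18151 genes of less than 0.05. Of the p53 targets, CDKN1A averaged 748 CPM in Prolif_RG7388, 627 CPM in Prolif_HDM201 and 231 CPM in Prolif_DMSO cells and was called higher with both compounds. MDM2 averaged 64.0, 52.8 and 37.7 CPM in the same groups and was called with RG7388 (adjusted p = 0.0360) but not with HDM201 (log2 fold change 0.49, adjusted p = 0.302). In irradiated cells neither was called with a compound, with 2110 CPM of CDKN1A in IR_RG7388, 1763 CPM in IR_HDM201 and 1818 CPM in IR_DMSO cells, and 163, 162 and 170 CPM of MDM2. The proliferation gene MKI67 averaged 28.9 CPM in IR_DMSO cells and 506 CPM in Prolif_DMSO cells, while the SASP chemokine CXCL8 averaged 635 and 8.34 CPM in these groups. Replicate 3 of Prolif_HDM201 and replicate 1 of IR_DMSO correlated least with the other libraries of their groups (mean r of 0.977 and 0.979, against 0.980 to 0.991 for the other 16 libraries). They are named below as the libraries that stood apart, although the margin was small. Some of the results that rest on them are also given without both. In bulk RNA, fewer expressing cells and less RNA per cell cannot be told apart.

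Of the 8 genes, 6 passed the filter on low counts, and TLR4 and NLRP3 did not. TLR2 passed only through the 3 IR_DMSO libraries, the 3 of 18 that reached the 0.301 CPM it required (before TMM scaling). Since this fixes a direction against IR_DMSO, the values of TLR2 are a description, and members are counted over the other 5 genes. Levels between genes were compared per length, with the deposited FPKM (fragments scaled by transcript length and depth). In IR_DMSO cells mean FPKM was 68.9 ± 5.04 for CASP4 and 28.3 ± 10.1 for MYD88 (SD, n = 3), of which IR_DMSO replicate 1 had 40.0 FPKM and the other 2 libraries 22.5 FPKM each. CASP1 (16.3 ± 4.64 FPKM) and GSDMD (15.5 ± 4.88 FPKM) followed and did not differ beyond their spread. TLR3 lay at 0.843 ± 0.592 FPKM and TLR2 at 0.161 ± 0.0837 FPKM. In Prolif_DMSO cells the order was the same for the first 2, with CASP4 at 39.8 ± 0.516 FPKM and MYD88 at 15.1 ± 1.02 FPKM, and GSDMD (10.9 ± 0.505 FPKM) then lay above CASP1 (7.07 ± 1.27 FPKM).

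**Figure D1:**
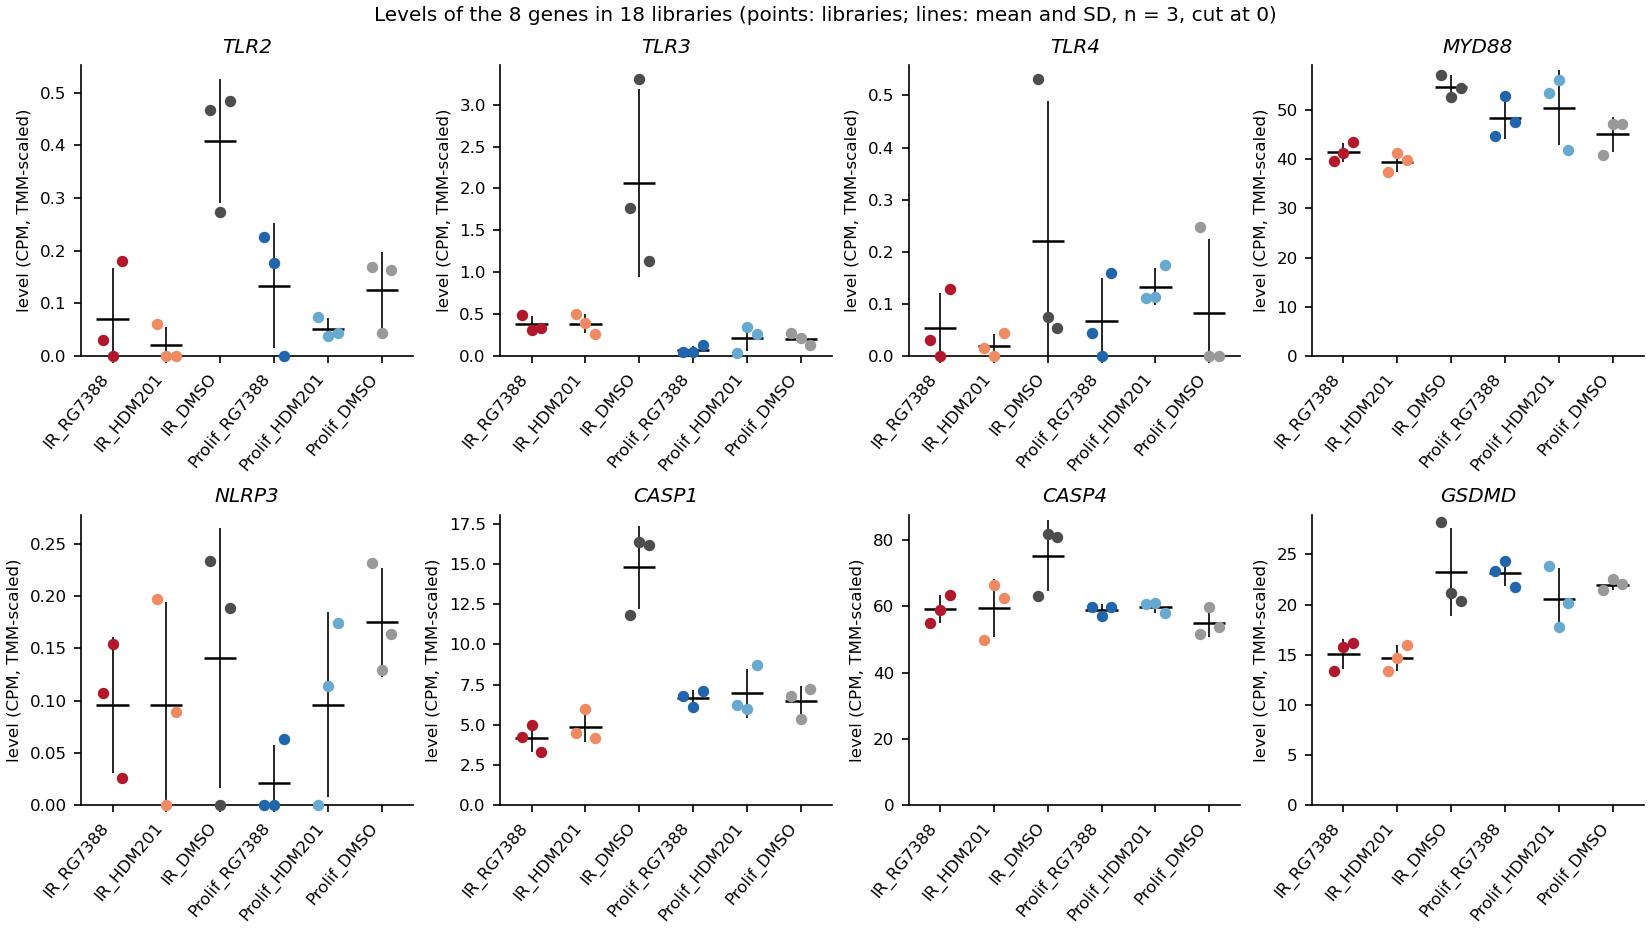
Level of each gene (y axis, TMM-scaled CPM, linear from 0) in the 3 libraries of each of 6 groups (x axis). Points are libraries, horizontal lines group means and vertical lines the SD (n = 3, cut at 0). For CASP1 the 3 IR_DMSO libraries (11.8 to 16.4 CPM) lie above all other libraries (3.29 to 8.71 CPM), and for TLR2, TLR4 and NLRP3 no library reaches 0.6 CPM.

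Irradiation alone was assessed first, in cells given DMSO. Of the 5 genes, 4 (TLR3, MYD88, CASP1 and CASP4) were higher in IR_DMSO than in Prolif_DMSO cells and 0 were lower, where 26.3% of all 18151 genes were higher and 25.3% lower. Their median log2 fold change was 0.45, against 0.05 over all genes. MDM2 inhibition in irradiated cells was assessed next. All 5 genes were lower in IR_RG7388 than in IR_DMSO cells, where 11.9% of all genes were lower, with a median of -0.62 against -0.03 over all genes. All 5 were also lower in IR_HDM201 than in IR_DMSO cells, where 11.3% of genes were lower, with a median of -0.67 against -0.02 over all genes. The calls of MYD88 and CASP4 among these were lost under some alternatives, given with each gene. Both compound comparisons, and that of irradiation, share the 3 IR_DMSO libraries, so their calls are not independent of each other. The 5 genes belong to a set chosen with earlier results of these data known. Their counts and medians beside those of all genes are therefore a description, not a test of the set.

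Of the 3 receptors, TLR3 had the most reads in IR_DMSO cells and was called in all 3 comparisons. TLR3 had 0.490, 0.309 and 0.337 CPM in the 3 IR_RG7388 libraries, 0.502, 0.395 and 0.267 CPM in the IR_HDM201 libraries, and 1.76, 3.30 and 1.13 CPM in the IR_DMSO libraries. Every IR_DMSO library lay above every irradiated library given a compound, and the IR_DMSO libraries spread widely around their mean (2.07 ± 1.12 CPM). TLR3 fell by 2.41 ± 0.47 on the log2 scale with RG7388 (5.30-fold lower, edgeR adjusted p = 0.000536) and by 2.34 ± 0.48 with HDM201 (5.08-fold lower, adjusted p = 0.000979). In raw counts TLR3 had 83, 133 and 42 reads in the IR_DMSO libraries, against 18, 5 and 5 reads in the Prolif_DMSO libraries. TLR3 was 9.42-fold higher in IR_DMSO than in Prolif_DMSO cells (log2 fold change 3.24 ± 0.51, adjusted p = 1.14e-05).

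The promoter of TLR3 is shown because TLR3 had the largest fold change with irradiation of the 5 genes. The promoters of MYD88 and CASP4, which moved in the same directions, are shown beside it, one with and one without the same motifs. The sequences are RefSeq's (GRCh38.p14), 250 bases before to 50 bases after the annotated start, written on the strand of the gene. Capitals mark matches, on either strand, to the core of the interferon-stimulated response element (ISRE, a pair of GAAA copies with any 2 bases between them) and to the gamma-activated site (GAS, TTCNNNGAA). In MYD88 a GAS match and an ISRE match overlap and run together.
TLR3 (chr4:186068906-186069205, plus strand): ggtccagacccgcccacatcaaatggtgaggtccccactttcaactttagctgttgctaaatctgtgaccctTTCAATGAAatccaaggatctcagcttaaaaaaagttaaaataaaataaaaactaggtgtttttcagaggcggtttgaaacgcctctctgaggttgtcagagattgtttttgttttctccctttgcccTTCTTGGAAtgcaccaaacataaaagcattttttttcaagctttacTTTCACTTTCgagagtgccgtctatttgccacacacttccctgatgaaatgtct
MYD88 (chr3:38138411-38138710, plus strand): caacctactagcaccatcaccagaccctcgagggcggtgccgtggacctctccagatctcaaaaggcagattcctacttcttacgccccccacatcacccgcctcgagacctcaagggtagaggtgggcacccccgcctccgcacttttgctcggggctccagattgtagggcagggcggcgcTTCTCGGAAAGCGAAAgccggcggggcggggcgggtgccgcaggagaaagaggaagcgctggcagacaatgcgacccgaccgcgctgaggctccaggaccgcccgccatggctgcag
CASP4 (chr11:104968525-104968824, minus strand): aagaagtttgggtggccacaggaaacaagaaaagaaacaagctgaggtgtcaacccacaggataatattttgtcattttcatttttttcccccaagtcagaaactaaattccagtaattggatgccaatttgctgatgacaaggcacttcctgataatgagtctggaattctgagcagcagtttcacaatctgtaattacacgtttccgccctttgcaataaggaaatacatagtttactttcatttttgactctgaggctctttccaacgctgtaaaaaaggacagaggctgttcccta

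The TLR3 window held 2 GAS matches and 1 ISRE match, which runs from base -4 to base 6 around the start. The MYD88 window held 1 of each, at -67 to -59 for the GAS and -61 to -52 for the ISRE. Of all 35116 RefSeq promoter windows of this length, 7.66% held a GAS match and 3.57% an ISRE match. No match to either motif, nor to the NF-kB consensus (5.91% of all windows), was found in the windows of TLR2, TLR4, CASP4 and NLRP3, and the windows of TLR3 and MYD88 held no match to the NF-kB consensus. A match describes the letters only.

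TLR2, a receptor for bacterial lipoproteins, was near the floor of detection. TLR2 had 2, 0 and 7 reads in the IR_RG7388 libraries and 4, 0 and 0 reads in the IR_HDM201 libraries, against 22, 11 and 18 reads in the IR_DMSO libraries. The IR_DMSO libraries lay at 0.273 to 0.485 CPM, and the filter, which TLR2 passed only through them, fixed this order. The fitted log2 fold change of TLR2 was -2.52 ± 0.88 for IR_RG7388 and -3.52 ± 1.01 for IR_HDM201, each against IR_DMSO. With 1 library left out in turn these values spanned -4.17 to -2.02 for IR_RG7388 and -6.87 to -3.20 for IR_HDM201.

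Irradiation left TLR2 at 51 reads over the 3 IR_DMSO libraries, against 18 reads (11, 1 and 6) over the 3 Prolif_DMSO libraries. The CPM ranges (0.273 to 0.485 in IR_DMSO, 0.0431 to 0.170 in Prolif_DMSO) are a description, since only IR_DMSO libraries reached the filter's threshold. The fitted log2 fold change was 1.57 ± 0.81.

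TLR4, the lipopolysaccharide receptor, had 2, 0 and 5 reads in the IR_RG7388 libraries, 1, 0 and 1 in the IR_HDM201 libraries, and 25, 3 and 2 in the IR_DMSO libraries. Most of its IR_DMSO reads thus came from replicate 1, a library that stood apart. In proliferating cells TLR4 had 1, 0 and 5 reads with RG7388, 3, 3 and 8 reads with HDM201, and 16, 0 and 0 reads with DMSO, so replicate 1 again held all reads of Prolif_DMSO. A group total of 3 reads stood for 0.0220 to 0.0394 CPM, and a change in TLR4 was not detectable at this depth. In a fit without the filter, TLR4 had an adjusted p of 0.124 for IR_HDM201 against IR_DMSO and of 0.446 for IR_RG7388 against IR_DMSO. TLR4 overlaps a further gene on its own strand in GENCODE release 44, and how reads shared by both were counted is not given in the sources used here.

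MYD88, the adaptor of most Toll-like receptors and of the interleukin-1 receptor, was well expressed and moved little. MYD88 had 39.5, 41.3 and 43.4 CPM in the IR_RG7388 libraries, 37.3, 41.2 and 39.9 CPM in the IR_HDM201 libraries, and 57.2, 52.6 and 54.4 CPM in the IR_DMSO libraries. The ranges of either compound and of DMSO did not overlap. MYD88 fell by 0.40 ± 0.11 with RG7388 (1.32-fold lower, adjusted p = 0.0102) and by 0.47 ± 0.11 with HDM201 (1.39-fold lower, adjusted p = 0.00345). The call with RG7388 was lost without IR_RG7388 replicate 1 (0.0677) or 2 (0.0508) and without the filter on low counts (0.0960).

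Against proliferating cells the change of MYD88 was small. The Prolif_DMSO libraries had 40.9, 47.1 and 47.1 CPM, all below the lowest IR_DMSO library at 52.6 CPM. MYD88 was 1.22-fold higher in IR_DMSO than in Prolif_DMSO cells (log2 fold change 0.28 ± 0.11, adjusted p = 0.0359). This call was lost when any 1 of the 6 libraries was left out (adjusted p of 0.0550 to 0.189) and without the filter (0.130), while without both libraries that stood apart the log2 fold change was 0.23 (0.0377). By limma on log2(FPKM + 1), in which replicate 1 was the highest IR_DMSO library, it was 0.82 (adjusted p = 0.000503).

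NLRP3, a sensor of cell damage, had 7, 5 and 1 reads in the IR_RG7388 libraries, 13, 0 and 2 in the IR_HDM201 libraries and 11, 0 and 7 in the IR_DMSO libraries. In proliferating cells it had 0, 0 and 2 reads with RG7388, 0, 3 and 8 reads with HDM201, and 15, 3 and 6 reads with DMSO. The irradiated groups overlapped with one another and with Prolif_DMSO, and no change in NLRP3 was detectable at this depth (edgeR without the filter, adjusted p of at least 0.677 in each comparison). Like TLR4, NLRP3 overlaps a further gene on its own strand in GENCODE release 44.

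Among the members above 1 CPM in every group, CASP1 had the largest log2 fold change in each of the 3 comparisons. CASP1 had 4.27, 5.01 and 3.29 CPM in the IR_RG7388 libraries, 4.47, 5.97 and 4.18 CPM in the IR_HDM201 libraries, and 11.8, 16.4 and 16.2 CPM in the IR_DMSO libraries. The lowest IR_DMSO library, replicate 1, lay above the highest irradiated library given a compound. CASP1 fell by 1.82 ± 0.19 with RG7388 (3.53-fold lower, adjusted p = 1.48e-07) and by 1.61 ± 0.19 with HDM201 (3.05-fold lower, adjusted p = 1.36e-06). Both calls held under every alternative run, and without both libraries that stood apart the falls were by 1.95 and 1.75.

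In Prolif_DMSO libraries CASP1 had 6.78, 5.39 and 7.24 CPM, all below the IR_DMSO libraries. CASP1 was 2.27-fold higher in IR_DMSO than in Prolif_DMSO cells (log2 fold change 1.18 ± 0.18, adjusted p = 1.08e-05). With RG7388 its level in irradiated cells lay below that of Prolif_DMSO cells (log2 fold change -0.64 ± 0.19, adjusted p = 0.00781), a call that was lost without IR_RG7388 replicate 3 (0.0598). With HDM201 the difference was -0.43 ± 0.19 and was not called (adjusted p = 0.0696). CASP1 (chr11:105025397-105035250, minus strand) lies near CASP4 (chr11:104942866-104969366, minus strand) in a cluster that also holds CARD16, a gene much like the start of CASP1, so the split of reads between CASP1 and CARD16 is uncertain.

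By FPKM, CASP4 had the highest level of the 8 genes in each group. CASP4 had 55.0, 58.8 and 63.3 CPM in the IR_RG7388 libraries, 49.7, 66.4 and 62.4 CPM in the IR_HDM201 libraries, and 63.0, 81.9 and 80.8 CPM in the IR_DMSO libraries. IR_DMSO replicate 1 lay within the range of the compound groups, and the other 2 IR_DMSO libraries lay above it. CASP4 fell by 0.35 ± 0.12 with RG7388 (1.27-fold lower, adjusted p = 0.0311) and by 0.34 ± 0.12 with HDM201 (1.27-fold lower, adjusted p = 0.0384). The RG7388 call was lost without IR_DMSO replicate 2 (0.146) or 3 (0.128) or IR_RG7388 replicate 1 (0.150) or 2 (0.0990), and the HDM201 call without IR_DMSO replicate 2 (0.164) or 3 (0.147) or IR_HDM201 replicate 1 (0.227) or 3 (0.0654). Both were also lost without the filter (0.190 with RG7388, 0.164 with HDM201). Without both libraries that stood apart the falls were by 0.46 (adjusted p = 0.00139) and 0.45 (0.00179). CASP4 was 1.37-fold higher in IR_DMSO than in Prolif_DMSO cells (0.45 ± 0.12, adjusted p = 0.00224), where the Prolif_DMSO libraries had 51.5, 59.8 and 53.7 CPM.

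GSDMD, the pore-forming substrate of both caspases, was lower with the compounds but was not called with irradiation. GSDMD had 13.4, 15.8 and 16.2 CPM in the IR_RG7388 libraries, 13.4, 14.7 and 15.9 CPM in the IR_HDM201 libraries, and 28.2, 21.2 and 20.3 CPM in the IR_DMSO libraries. The compound groups lay below all IR_DMSO libraries, of which replicate 1 was the highest. GSDMD fell by 0.62 ± 0.13 with RG7388 (1.54-fold lower, adjusted p = 0.00132) and by 0.67 ± 0.13 with HDM201 (1.59-fold lower, adjusted p = 0.000851). Without both libraries that stood apart the falls were by 0.46 (adjusted p = 0.00510) and 0.50 (0.00282).

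The Prolif_DMSO libraries had 21.5, 22.5 and 22.0 CPM of GSDMD, within the range of IR_DMSO. The difference between IR_DMSO and Prolif_DMSO cells was 0.08 ± 0.13 (adjusted p = 0.627, 95% interval -0.19 to 0.36). Its sign turned without IR_DMSO replicate 1 (-0.11, adjusted p = 0.517), and with scaling by library totals alone, which moved the median of all genes by 0.29, GSDMD was called higher (0.38, adjusted p = 0.0214). By limma on log2(FPKM + 1) GSDMD was also called higher (0.44, adjusted p = 0.0281), with 21.1 FPKM in IR_DMSO replicate 1 and 12.3 and 13.1 FPKM in the other 2 libraries. Relative to Prolif_DMSO cells, GSDMD was lower in IR_RG7388 cells (log2 fold change -0.54 ± 0.13, adjusted p = 0.00168) and in IR_HDM201 cells (-0.59 ± 0.13, adjusted p = 0.000881). In GENCODE release 44 a further gene overlaps GSDMD on the opposite strand, and the strand setting of the counting is not given in the sources used here.

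**Figure D2:**
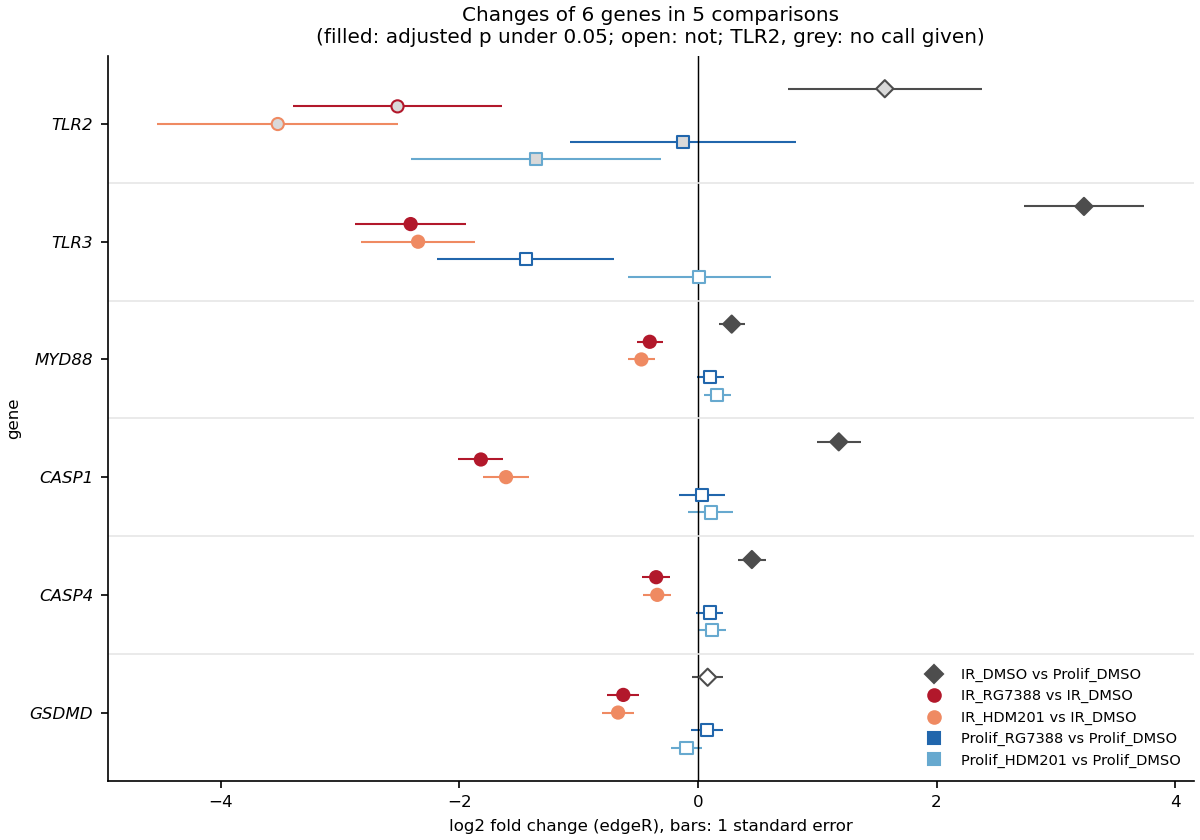
Log2 fold change (x axis, edgeR) of 6 genes (y axis) in 5 comparisons, with bars of 1 SE; filled symbols passed an adjusted p of 0.05, open ones did not, and grey ones (TLR2) are given with no call. For the other 5 genes all 10 values for the compounds in irradiated cells are below 0 and filled, from -0.34 (CASP4, HDM201) to -2.41 (TLR3, RG7388), and all 10 values for the compounds in proliferating cells are open.

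Against Prolif_DMSO, 2 of the 5 genes (CASP1 and GSDMD) were lower in IR_RG7388 cells, where 24.6% of all genes were lower, and 1 (GSDMD) was lower in IR_HDM201 cells, where 25.0% of genes were lower. TLR3 did not pass in either comparison, with 0.83 ± 0.53 for IR_RG7388 (adjusted p = 0.209) and 0.89 ± 0.55 for IR_HDM201 (adjusted p = 0.182). MYD88 (-0.12 ± 0.11 and -0.19 ± 0.11) and CASP4 (0.10 ± 0.12 and 0.11 ± 0.12) did not pass in these comparisons either. By limma on log2(FPKM + 1) CASP4 was called higher in both (0.30, adjusted p = 0.0140, for IR_RG7388 and 0.33, adjusted p = 0.00684, for IR_HDM201).

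In proliferating cells 0 of the 5 genes was called with either compound by edgeR, at an unadjusted p under 0.05, or by DESeq2. Of all genes, 1.54% were called with RG7388 and 0.700% with HDM201. CASP1 had 6.81, 6.09 and 7.08 CPM in the Prolif_RG7388 libraries and 6.21, 5.98 and 8.71 CPM in the Prolif_HDM201 libraries, which overlap the Prolif_DMSO libraries. Its log2 fold change was 0.03 with RG7388 (95% interval -0.36 to 0.43) and 0.11 with HDM201 (95% interval -0.28 to 0.50). GSDMD had 23.3, 24.3 and 21.8 CPM with RG7388 (log2 fold change 0.07, 95% interval -0.20 to 0.35) and 23.8, 17.8 and 20.2 CPM with HDM201 (-0.09, 95% interval -0.37 to 0.18).

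CASP4 spanned 56.9 to 59.9 CPM in Prolif_RG7388 and 57.8 to 60.8 CPM in Prolif_HDM201 libraries, against 51.5 to 59.8 CPM in Prolif_DMSO libraries, with log2 fold changes of 0.10 and 0.12. MYD88 had 44.6, 52.9 and 47.6 CPM with RG7388 and 53.4, 56.1 and 41.8 CPM with HDM201. The lowest of these was replicate 3 of Prolif_HDM201, which stood apart. MYD88 changed by 0.11 ± 0.11 with RG7388 (adjusted p = 0.759) and by 0.16 ± 0.11 with HDM201 (adjusted p = 0.684). Without both libraries that stood apart MYD88 was called higher with HDM201 (0.29, adjusted p = 0.0355), and the number of genes called in that comparison was then 2833, against 127 with all libraries. TLR3 had 1, 1 and 4 reads with RG7388 and 1, 9 and 12 reads with HDM201, and TLR2 had 5, 4 and 0 reads with RG7388 and 2, 1 and 2 reads with HDM201.

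Whether a compound's effect differed between states was tested as an interaction, the effect in irradiated cells minus that in proliferating cells. For RG7388, 3 of the 5 genes (MYD88, CASP1 and GSDMD) had a lower effect in irradiated cells, against 5.27% of all genes. For HDM201, 2 (MYD88 and CASP1) did, against 5.67% of all genes. The interaction of CASP1 was -1.85 ± 0.27 with RG7388 (edgeR adjusted p = 4.53e-05) and -1.72 ± 0.27 with HDM201 (adjusted p = 0.000113), and it kept its call when any 1 library was left out. That of GSDMD was -0.70 ± 0.19 with RG7388 (adjusted p = 0.0217) and -0.57 ± 0.19 with HDM201 (adjusted p = 0.0625). Its RG7388 call was lost without Prolif_DMSO replicate 1 (0.0623), Prolif_RG7388 replicate 1 (0.0507) or 2 (0.0574), IR_DMSO replicate 1 (0.0699) or IR_RG7388 replicate 1 (0.0893).

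The interaction of MYD88 was -0.51 ± 0.16 with RG7388 (adjusted p = 0.0495), a call lost when any 1 of the 12 libraries was left out (0.0586 to 0.170) and without the filter (0.240), and -0.64 ± 0.16 with HDM201 (adjusted p = 0.0110), a call lost without Prolif_HDM201 replicate 2 (0.0502) and without the filter (0.0522). CASP4 did not pass with RG7388 (-0.45 ± 0.16, adjusted p = 0.111) or HDM201 (-0.46 ± 0.16, adjusted p = 0.0853), but was called for both without both libraries that stood apart (-0.56, adjusted p = 0.00750, and -0.60, adjusted p = 0.00509), and by limma on log2(FPKM + 1) (-0.58 for each, adjusted p = 0.0101 and 0.00987). TLR3 did not pass with RG7388 (-0.96 ± 0.97, adjusted p = 0.667), where Prolif_RG7388 held 6 reads over its 3 libraries, or with HDM201 (-2.36 ± 0.77, adjusted p = 0.0591).

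The genes of these pathways were counted from lists chosen with earlier results of these data known. The lists include the members, so their counts partly repeat the calls given above and are not independent of them. Counts stand beside shares of all genes: in irradiated cells 10.9% were higher and 11.9% lower with RG7388, and 9.96% higher and 11.3% lower with HDM201. In IR_DMSO against Prolif_DMSO cells 26.3% of all genes were higher and 25.3% lower. Of the 10 Toll-like receptors, 5 were tested. TLR3 was the 1 called higher in IR_DMSO than in Prolif_DMSO cells (median over the 5 genes 0.98), and TLR3 was lower with each compound, beside TLR2, which passed the filter only through IR_DMSO (medians with both of -0.15 with RG7388 and -0.34 with HDM201). TLR6, a partner of TLR2, had the most reads of the family, with 5.06 CPM in IR_RG7388, 4.85 in IR_HDM201, 4.05 in IR_DMSO and 3.13 in Prolif_DMSO cells, and was not called with RG7388 (0.32 ± 0.22) or HDM201 (0.28 ± 0.22). TLR4, TLR7, TLR8, TLR9 and TLR10 were below the filter, and the last 4 of these had at most 18 reads in a library.

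Of the 9 co-receptors and chaperones of these receptors, 7 were tested. In IR_DMSO against Prolif_DMSO cells 5 were higher and 0 lower (median 0.74), among them CD14, which hands lipopolysaccharide to TLR4 (3.01 ± 0.64), its partner LY96 (0.63 ± 0.14) and UNC93B1, which brings TLR3 to endosomes (0.74 ± 0.13, adjusted p = 3.46e-05). CNPY3, a folding chaperone of Toll-like receptors, was the 1 called with each compound, and fell by 0.34 ± 0.11 with RG7388 (list median -0.34) and by 0.45 ± 0.11 with HDM201 (list median -0.30). UNC93B1 itself did not pass with RG7388 (-0.34 ± 0.13, adjusted p = 0.0571) or with HDM201 (-0.30 ± 0.13, adjusted p = 0.0926).

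Of the 17 adaptors and signaling genes, 16 were tested. In IR_DMSO against Prolif_DMSO cells 6 were higher and 5 lower (median -0.06). The kinase IRAK2 was 4.22-fold higher (2.08 ± 0.14), and the kinase IRAK1 was lower (-0.83 ± 0.10). With RG7388 in irradiated cells 3 were higher and 4 lower, and with HDM201 1 was higher and 2 lower (medians of 0.02 and 0.01). IRAK2 fell by 1.72 ± 0.13 with RG7388 and by 1.62 ± 0.13 with HDM201, whereas the kinase IRAK4 was higher with both (0.40 ± 0.11 and 0.49 ± 0.11).

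The 7 brakes on this pathway were all tested. In IR_DMSO against Prolif_DMSO cells 5 were higher and 0 lower (median 0.82), and 4 were lower and 0 higher with each compound (medians of -0.44 with RG7388 and -0.59 with HDM201). The ubiquitin-editing enzyme TNFAIP3 averaged 6.49 CPM in IR_RG7388, 6.43 CPM in IR_HDM201, 77.5 CPM in IR_DMSO and 14.5 CPM in Prolif_DMSO cells. IRAK3, a kinase-dead relative that restrains MYD88 signaling, averaged 2.33, 2.42, 17.5 and 3.01 CPM in the same groups. Both fell with RG7388 (TNFAIP3 by 3.57 ± 0.13, IRAK3 by 2.90 ± 0.25) and with HDM201 (by 3.58 ± 0.13 and 2.80 ± 0.25).

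Of the 12 inflammasome sensors and scaffolds, 7 were tested, and 3 were higher and 2 lower in IR_DMSO than in Prolif_DMSO cells (median 0.24). With RG7388 1 was higher and 1 lower (median -0.33), and with HDM201 1 was higher and 2 lower (median -0.05). NLRP6, NLRP12, AIM2 and MEFV were below the filter with NLRP3, at no more than 15 reads in a library, while NLRP1 averaged 19.4 CPM in IR_DMSO and 22.3 CPM in Prolif_DMSO cells. PYCARD, the scaffold that joins sensor to CASP1, was higher in IR_DMSO cells (0.68 ± 0.23, adjusted p = 0.0151). It fell by 0.76 ± 0.23 with HDM201 (adjusted p = 0.0206) and did not pass with RG7388 (-0.53 ± 0.22, adjusted p = 0.0930). NEK7, a kinase that binds NLRP3, went the other way: it was lower in IR_DMSO than in Prolif_DMSO cells (-0.58 ± 0.15) and higher with RG7388 (0.51 ± 0.15) and HDM201 (0.93 ± 0.15).

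Of the 7 inflammatory caspases and their CARD-only decoys, 4 were tested: CASP1, CASP4, CASP12 and CARD16. All 4, of which CASP1 and CASP4 are members, were lower with each compound (medians of -1.29 with RG7388 and -1.19 with HDM201). CASP12 had wide SEs (-2.58 ± 0.81 with RG7388 and -3.15 ± 0.94 with HDM201). Through which groups CASP12 passed the filter was not examined, so its calls are a description. In IR_DMSO against Prolif_DMSO cells CASP1 and CASP4 were the 2 called (median 0.77). CARD16, which binds CASP1, averaged 3.68 CPM in IR_RG7388, 3.68 CPM in IR_HDM201 and 6.24 CPM in IR_DMSO cells and fell by 0.76 ± 0.15 with RG7388 and by 0.78 ± 0.15 with HDM201. CASP5, CARD17 and CARD18 had at most 7 reads in a library.

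Of the 7 gasdermins and genes of membrane rupture, 5 were tested. In IR_DMSO against Prolif_DMSO cells 2 were higher and 0 lower (median 0.08), and 2 were lower with RG7388 (median -0.40) and 3 with HDM201 (median -0.59). NINJ1, which ruptures the membrane after pore formation, averaged 30.3 CPM in IR_RG7388, 28.3 CPM in IR_HDM201, 51.8 CPM in IR_DMSO and 26.5 CPM in Prolif_DMSO cells. It was higher in IR_DMSO than in Prolif_DMSO cells (0.97 ± 0.14) and fell by 0.77 ± 0.14 with RG7388 and by 0.88 ± 0.14 with HDM201. GSDME, a further gasdermin, had the most reads of the gasdermins (71.3, 71.1, 63.7 and 72.2 CPM in these groups) and was not called with irradiation (-0.18 ± 0.12). GSDMA and GSDMC were below the filter.

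A list of 7 interleukin genes held the CASP1 substrates IL1B and IL18, other interleukin-1 family members and their antagonists. Of these, 5 were tested, and 4 were higher and 1 lower in IR_DMSO than in Prolif_DMSO cells (median 4.00). With each compound 4 were lower (medians of -3.61 with RG7388 and -3.39 with HDM201). IL1B averaged 0.709 CPM in IR_RG7388, 0.712 CPM in IR_HDM201, 89.0 CPM in IR_DMSO and 2.10 CPM in Prolif_DMSO cells, and fell by 6.86 ± 0.24 with RG7388 and fell by 7.05 ± 0.25 with HDM201. IL18 had 0.223, 0.303, 0.793 and 0.274 CPM in these groups and fell by 1.80 ± 0.48 with RG7388 (adjusted p = 0.00823) and by 1.36 ± 0.48 with HDM201 (adjusted p = 0.0447). Outside IR_DMSO its mean in these groups was at most 0.303 CPM, near the 0.301 CPM that the filter required. Through which groups IL18 passed the filter was not examined, so its calls, also within the counts of this list, are a description. Of the 5 guanylate-binding proteins that gather CASP4 on bacteria, 3 were tested. GBP2 and GBP3 were higher in IR_DMSO than in Prolif_DMSO cells, and GBP1 was not called (median over the 3 genes 1.08). GBP1 and GBP2 were lower with each compound (GBP2 by 1.71 ± 0.14 with RG7388 and by 1.70 ± 0.14 with HDM201), whereas GBP3 had 0.07 ± 0.20 and 0.28 ± 0.20.

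**Figure D3:**
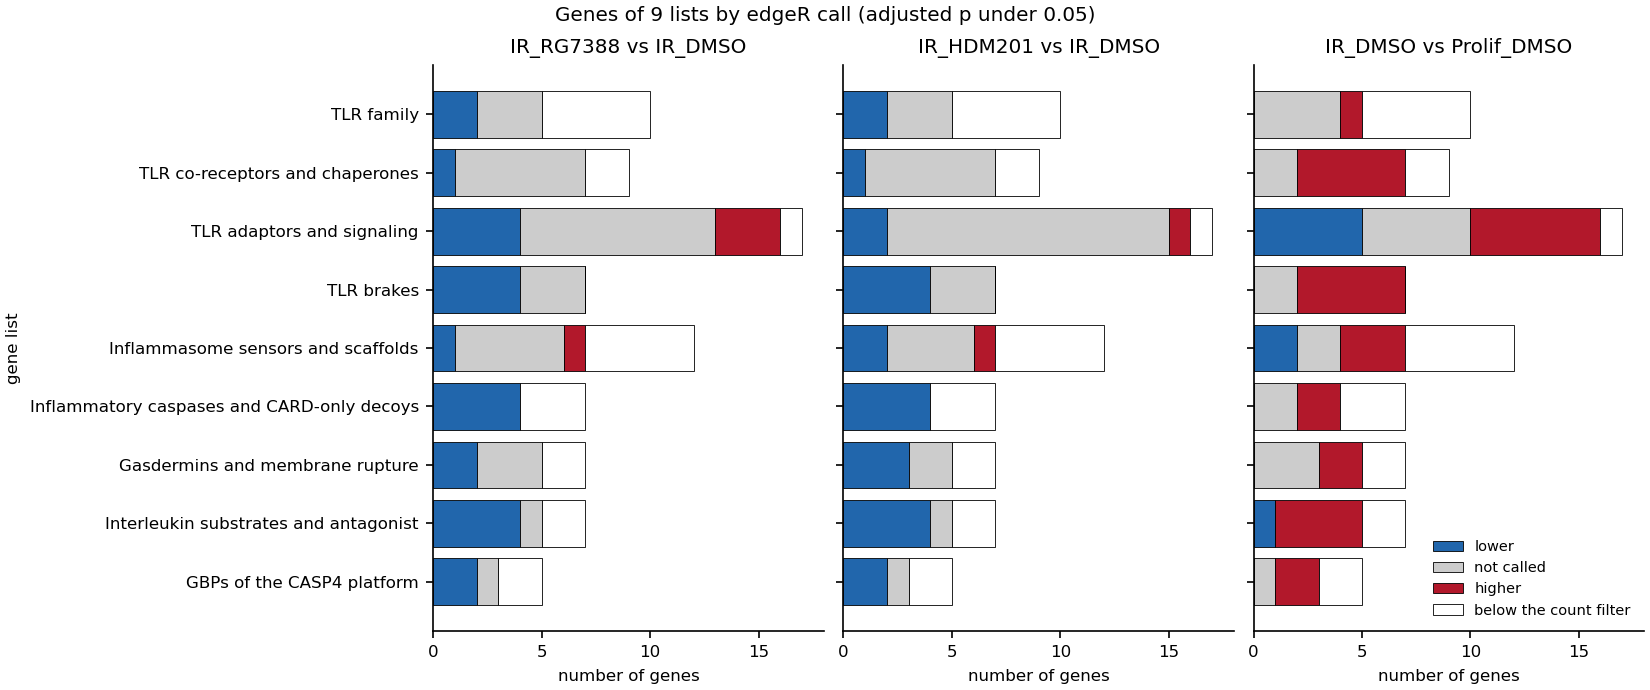
Number of genes (x axis) of each of 9 gene lists (y axis) called lower, not called, called higher or below the count filter in 3 comparisons. All 4 tested inflammatory caspases and decoys are lower with each compound, CASP12 among them with a wide SE. The lists include the members, and the TLR family counts include TLR2.

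For each member above 1 CPM in some group, the 3 genes most like it were named by Pearson's r of log2 CPM over the 18 libraries, among 14148 genes. The points share library, depth and the 6 group means, so r is a description. CASP1 was nearest to PLSCR1 (r = 0.943), GBP2 (r = 0.932) and APOL6 (r = 0.929). PLSCR1 averaged 6.49 CPM in IR_RG7388, 7.87 CPM in IR_HDM201, 31.7 CPM in IR_DMSO and 11.8 CPM in Prolif_DMSO cells, with 14.8 CPM in IR_DMSO and 6.47 CPM in Prolif_DMSO cells for CASP1. GSDMD was nearest to KAZALD1 (0.947), CD82 (0.925) and TMEM132A (0.921), MYD88 to CRABP2, MOV10 and CYP27A1 (0.896 to 0.898), CASP4 to RASL11A, ALAS1 and PSME1 (0.873 to 0.895), and TLR3 to RGS18, ZCWPW1 and DTWD1 (0.908 to 0.919).

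Toll-like receptors, NLRP3 and CASP1 are also genes of myeloid cells, so markers of leukocytes were summed in every library. The 16 leukocyte markers together reached 2.23 to 2.71 CPM in IR_RG7388, 2.14 to 2.55 CPM in IR_HDM201, 2.85 to 3.18 CPM in IR_DMSO and 6.89 to 7.64 CPM in Prolif_DMSO libraries, with 2 to 9 of the 16 at 0 in each of these libraries. Of the defining markers, TYROBP was at 0 in 17 of 18 libraries, with 1 read in the other, SPI1 had at most 7 reads and PTPRC at most 26. The marker sum was thus lower in IR_DMSO than in Prolif_DMSO libraries, where TLR3 and CASP1 were higher. It was also lower with the compounds, as CASP1 was, and its part in these results was not tested. Only 3 of the 16 markers passed the filter. In IR_DMSO against Prolif_DMSO cells CORO1A was called lower, and CSF1R and CD79A were not called. With the compounds in irradiated cells the 3 markers did not move together. CSF1R was called lower (-2.27 ± 0.49 with RG7388 and -1.36 ± 0.48 with HDM201). CORO1A (0.55 ± 0.28 and 0.14 ± 0.30) and CD79A (-0.02 ± 0.82 and 0.50 ± 0.81) were not called. The 8 epithelial markers summed to 362 to 422 CPM in IR_RG7388, 286 to 401 CPM in IR_HDM201, 153 to 169 CPM in IR_DMSO and 266 to 282 CPM in Prolif_DMSO libraries, with 0 to 3 of the 8 at 0 in each of these libraries. The sum was thus higher with each compound and lower with irradiation, and KRT8, KRT18 and KRT19 were called higher with each compound. Of the defining epithelial markers, CDH1 had at most 20 reads and EPCAM at most 80 in a library. The 6 endothelial markers summed to 122 to 128 CPM in IR_RG7388, 113 to 118 CPM in IR_HDM201, 117 to 138 CPM in IR_DMSO and 83.7 to 90.7 CPM in Prolif_DMSO libraries, with 0 to 2 of the 6 at 0. TEK held most of this sum (125 CPM in IR_DMSO cells), and CDH5 had at most 9 reads in a library. The 11 fibroblast markers summed to 24854 to 26931 CPM in IR_RG7388, 22862 to 23458 CPM in IR_HDM201, 17815 to 25985 CPM in IR_DMSO and 45453 to 51383 CPM in Prolif_DMSO libraries, with 0 of the 11 at 0. The part of the epithelial, endothelial and fibroblast sums in the results was not tested.

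**Figure D4:**
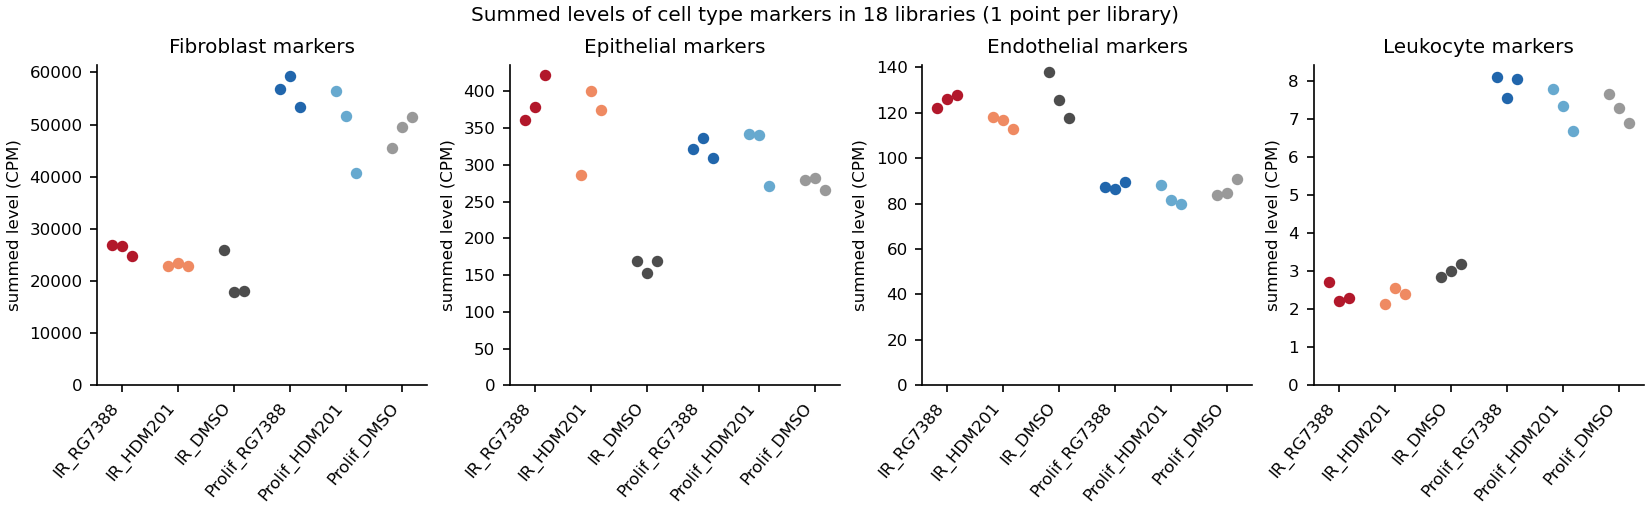
Summed level (y axis, CPM, linear from 0) of fibroblast, epithelial, endothelial and leukocyte markers in each of the 18 libraries (points), by group (x axis). The leukocyte sum stays at or below 8.11 CPM in all libraries, while the fibroblast sum is 17815 CPM or more.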

How the data were processed

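The authors aligned reads to hg38 with STAR. They deposited counts, which are whole reads per gene from HTSeq, and FPKM values from Cufflinks. Versions, annotation release and strand setting: not given in the sources used here. Both tables hold 60668 rows and the same 18 libraries, and 45 pseudoautosomal copies were left out. Groups and replicate numbers came from the sample labels. No pair of libraries had identical counts.

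Analysis used R 4.3.3 and edgeR 4.0.16. Low counts were filtered with filterByExpr by group (18151 genes kept), scaling was by TMM, and 1 quasi-likelihood fit (robust, 12 residual degrees of freedom) covered the 6 groups. The threshold was a Benjamini-Hochberg adjusted p of 0.05 over all genes tested. SEs were obtained as the absolute log2 fold change over the root of F. The script was tested on simulated data. Alternatives were DESeq2 1.42.0, limma 3.58.1 on log2 FPKM with pseudocounts of 1 and 0.1 (blank FPKM cells set to 0), other scalings and filters, a replicate block, a fit to only the groups compared, and each library left out in turn. Leaving out both libraries that stood apart was chosen after seeing the data.

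The 8 members and all gene lists were chosen with earlier results of these data known. A further list is not reported here. Named genes are the 8 members, up to 4 genes per list with the smallest unadjusted p in each of 3 comparisons (IR_RG7388 and IR_HDM201 against IR_DMSO, and IR_DMSO against Prolif_DMSO), list genes below the filter, the 3 genes most like each member, and state checks, of which the text gives a selection. Promoter sequences are RefSeq's for GRCh38.p14 and were read for 6 of the members. Gene positions are those of GENCODE release 44, which matched 60340 gene IDs. With 21609198 to 66647700 reads per library, a count of 3 in a library stands for 0.0456 to 0.135 CPM, and such floors cover counting error only.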

Additional observations from a re-analysis of the deposited data

Results flagged for a closer look

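In 5 cases a result stood out because the effect of a compound differed between irradiated and proliferating cells by the interaction test in edgeR (6 genes in 2 interactions, adjusted over all genes tested). For CASP1 the interaction was -1.85 with RG7388 (adjusted p = 4.53e-05) and -1.72 with HDM201 (adjusted p = 0.000113), and each irradiated library given a compound lay below each IR_DMSO library. For MYD88 it was -0.51 with RG7388 (adjusted p = 0.0495) and -0.64 with HDM201 (adjusted p = 0.0110). For GSDMD it was -0.70 with RG7388 (adjusted p = 0.0217). The HDM201 interaction of GSDMD did not pass (-0.57, adjusted p = 0.0625), which does not show that the compounds differ. The cause of these differences was not tested.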

How the results depend on the processing

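Over 54 member results (24 called, 30 not; TLR2 included here and in the counts of members below), 933 values were recomputed under other settings. Of these, 799 kept direction and call, 62 lost a call, 40 gained one and 32 changed direction. None of the 24 called results changed direction under any setting run. The TLR2 calls among them add nothing to this, since their direction against IR_DMSO was fixed by the filter. Without the low-count filter, 3 members, against 6, were called lower for IR_RG7388 against IR_DMSO (TLR2 had an adjusted p of 0.130) and 1, against 2, for the HDM201 interaction. The HDM201 interaction had 5 members called with library totals alone and 4 with the DESeq2 Wald test. For IR_HDM201 against Prolif_DMSO, library totals alone and the fit to the compared groups each called 2. Library totals moved the median of all genes by 0.29 for IR_DMSO against Prolif_DMSO, where 71.5% of called genes were then higher (51.0% with TMM), by -0.19 for IR_RG7388 against IR_DMSO (20.2% higher, 48.0% with TMM) and by -0.15 for IR_HDM201 against IR_DMSO (22.5% higher, 46.8% with TMM). For the interactions it moved the median by -0.13 with RG7388 (15.1% higher, 29.4% with TMM) and by -0.14 with HDM201 (15.7% higher, 34.4% with TMM), for Prolif_RG7388 against Prolif_DMSO by -0.055 (67.5% higher, 77.8% with TMM), and for IR_HDM201 against Prolif_DMSO by 0.14 (60.2% higher, 50.2% with TMM).

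Genes called for Prolif_RG7388 against Prolif_DMSO (279 in the text) numbered 1081 in the fit to these groups, 557 with DESeq2, 144 and 91 with limma on log2 FPKM at pseudocounts of 1 and 0.1, 121 with the FPKM filter, and 94 to 134 with each library left out. For Prolif_HDM201 against Prolif_DMSO (127 in the text) they numbered 21, 304, 64, 58, 56 and 43 to 1672, the last without Prolif_HDM201 replicate 3, and 2833 genes with 1 member without both libraries that stood apart. The RG7388 interaction had 2098 genes in the fit to its groups and 2204 without both libraries, against 1356, and the HDM201 interaction 3321 without both, against 1568, and 1127 to 2943 with each library left out. Members called with each library left out numbered 3 to 6 for IR_RG7388 against IR_DMSO, 1 to 2 for the RG7388 interaction, 2 to 4 for the HDM201 interaction, and 1 to 2 for both compounds in irradiated cells against Prolif_DMSO. In every case the cause was not tested.

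Directions turned in uncalled results. For IR_DMSO against Prolif_DMSO, GSDMD was -0.11 without both libraries and -0.11 to 0.15 with each left out. For Prolif_RG7388 against Prolif_DMSO, TLR2 was 0.029 with the replicate block, 0.060 and 0.18 with limma at pseudocounts of 1 and 0.1, and -0.73 to 0.57 with each library left out. CASP1 there was -0.022 with library totals, -0.058 and -0.064 with limma at pseudocounts of 1 and 0.1, -0.058 with the FPKM filter, and -0.066 to 0.13 with each left out. For Prolif_HDM201 against Prolif_DMSO, TLR3 was -0.0061 with the filter of 1 CPM in 3 libraries, -0.020 and -0.15 with limma, -0.19 without both libraries, and -0.36 to 0.44 with each left out. CASP1 there was -0.074 and -0.088 with limma, -0.074 with the FPKM filter, -0.093 without both libraries, and -0.089 to 0.20 with each left out. MYD88 was 0.066, 0.070 and 0.066 under these limma settings for IR_RG7388 against Prolif_DMSO, and 0.0075, 0.0080 and 0.0075 for IR_HDM201 against Prolif_DMSO.

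Replicate numbers gave no clear sign of pairing: 9 of 45 same-number pairs had a residual r over 0.1 (range -0.21 to 0.19). For 8 of 18 libraries the best correlate in another group had the same number. The labels do not say whether same-number libraries shared a culture or irradiation, so a pairing remains unknown. With a replicate block, 9304, 4120 and 3826 genes were called for IR_DMSO against Prolif_DMSO and for IR_RG7388 and IR_HDM201 against IR_DMSO, against 9364, 4134 and 3861, and the RG7388 interaction of MYD88 had an adjusted p of 0.0555. TLR4 and NLRP3 were below the count filter, and TLR2 calls rest on 51 reads or fewer per group.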
